A study of Mus musculus with 35 samples.

Results

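The leukocyte β2 and homing integrins are described here through 8 genes: *Itgal*, *Itgam*, *Itgax* and *Itgad* (the α chains that pair with β2), *Itgb2* (β2), *Itga4* (α4) and the α4 partners *Itgb7* (β7) and *Itgb1* (β1). They were found by symbol among the 49671 genes of the count table, in which 9 entries carry 1 of these 8 symbols because *Itgam* is listed under 2 identifiers. Counts came from mouse lin- hematopoietic stem and progenitor cells (HSPCs), bone marrow cells depleted of cells with mature lineage markers, from wild-type C57Bl/6 mice. All 7 groups shared lentiviral transduction and 1 week of growth in methylcellulose (Methocult M3434), to which GM-CSF was added at 10 ng/mL. Before this growth, Empty cells were sorted as positive for mCherry, and cells with a construct as positive for both mCherry and mEGFP. This difference in the sort is part of every comparison with Empty. Each group had 5 libraries, numbered 1 to 5.

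Empty is the vector control. G-NHX9, written G-NHA9 in the study, is mEGFP-tagged NUP98–HOXA9, a leukemia fusion that joins the FG motif–rich N-terminal region of the nucleoporin NUP98 to the DNA-binding homeodomain of HOXA9. G-NHX9-8FA has phenylalanines of the C-terminal FG region changed to alanine. G-NHX9-21FGAA has a larger number of FG motifs of that region changed to alanines and keeps the N-terminal FG motifs. G-NHX9-midi is shortened to the C-terminal FG region next to the homeodomain, and G-NHX9-midi-21FGAA is that shorter form without FG motifs. G-NHX9-DDNA carries a homeodomain changed to weaken DNA binding. Constructs were expressed from a lentiviral vector in a mixed population and not from the endogenous locus. The labels give mice of 8 weeks, except Empty replicates 4 (9 weeks) and 5 (10 weeks) and G-NHX9 replicate 1 (11 weeks). The study's methods describe transduction in triplicate, so whether the 5 libraries of a group came from separate mice or cultures was not given in the sources used here. P-values therefore measure the spread between these libraries.

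Integrins are heterodimers of an α and a β chain that bind ligands on other cells or in the matrix once talin and kindlin have switched them to the active form. The β2 integrins are restricted to leukocytes: αLβ2 (LFA-1) binds ICAMs, αMβ2 (Mac-1, CD11b/CD18) binds ICAM1, fibrinogen and complement fragment iC3b, αXβ2 (CD11c/CD18) shares ligands with it, and αDβ2 is found on macrophage subsets. The homing integrins α4β1 and α4β7 bind VCAM1 and MAdCAM1, and α4β1 holds hematopoietic progenitors in the marrow. β2 without an α chain, or an α chain without β2, does not reach the cell surface in quantity, so that transcript levels alone do not give the surface level of any dimer.

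*Itgal* (chr7:127296260-127335138), *Itgam* (chr7:128062640-128118491), *Itgax* (chr7:128129547-128150657) and *Itgad* (chr7:128154376-128223816) lie in this order on the plus strand of mouse chromosome 7 (GRCm38, GENCODE M21). *Itgax* and *Itgad* are 3718 bases apart. *Itgb2* is at chr10:77530252-77565708, *Itga4* at chr2:79255426-79333123 and *Itgb1* at chr8:128685654-128733200, all on the plus strand, and *Itgb7* is at chr15:102215995-102231944 on the minus strand. The second *Itgam* entry (chr7:128062683-128128160, named Gm49368 in GENCODE M21) shares 3450 of the 5024 exonic bases of *Itgam* (68.7%) on the same strand. Reads in the shared exons can be lost or split by a counting program, so *Itgam* is uncertain in its level, and its member entry (ENSMUSG00000030786.18) and the second one (ENSMUSG00000108596.1) are given separately. *Itgad* shares 330 exonic bases with the pseudogene Gm17831 on the same strand. On the opposite strand it shares 560, of which 388 are with the transcript 4931431B13Rik, 102 with the antisense gene Gm39091 and 70 with *Cox6a2*, a muscle and heart cytochrome oxidase subunit gene. *Itga4* shares 1124 exonic bases with *Cerkl* on the opposite strand, and the strand setting of the counting is not given in the sources used here. *Cerkl* held 14 to 83 counts a library against at least 2210 of *Itga4*.

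The promoters of *Itgam*, *Itgax* and *Itgb1* are shown because *Itgax* and *Itgb1* fell with several constructs in which the member entry of *Itgam*, the neighbor of *Itgax*, was not called. Sequences are from RefSeq (GRCm38.p6), plus strand, and end at the base before the RefSeq transcription start. Capitals mark matches on either strand to 6 motifs. For PU.1 and other factors of the ETS family the letters searched were GAGGAA. For RUNX factors, partners of PU.1 in myeloid promoters, they were TGTGGT. Sp1, a factor of many promoters, was searched as GGGCGG. The letters for the GATA family, which acts in erythroid and mast cells, were AGATAA. C/EBP factors of granulocytes and monocytes were searched as TTGCNNAA. MEIS factors, cofactors of HOX proteins, were searched as TGACAG.

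Itgam, chr7:128062390-128062639: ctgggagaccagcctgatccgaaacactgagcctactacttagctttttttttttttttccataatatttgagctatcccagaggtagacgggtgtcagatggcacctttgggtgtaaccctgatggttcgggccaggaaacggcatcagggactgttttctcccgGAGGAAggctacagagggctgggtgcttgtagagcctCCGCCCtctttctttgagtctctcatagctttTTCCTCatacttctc

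Itgax, chr7:128129300-128129549: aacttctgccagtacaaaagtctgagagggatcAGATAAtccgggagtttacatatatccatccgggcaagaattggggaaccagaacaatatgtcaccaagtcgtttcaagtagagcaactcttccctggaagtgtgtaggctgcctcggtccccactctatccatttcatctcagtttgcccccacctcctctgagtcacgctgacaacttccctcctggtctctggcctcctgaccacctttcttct

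Itgb1, chr8:128685404-128685653: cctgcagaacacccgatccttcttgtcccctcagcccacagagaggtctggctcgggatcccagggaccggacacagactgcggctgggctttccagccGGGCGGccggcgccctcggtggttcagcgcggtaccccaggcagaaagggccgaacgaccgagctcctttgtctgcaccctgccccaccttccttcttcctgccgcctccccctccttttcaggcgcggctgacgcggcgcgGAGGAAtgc

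The *Itgam* window held GAGGAA at -84 and, on the minus strand, at -15 from the start, with GGGCGG on the minus strand at -47. That of *Itgb1* held GAGGAA at -9 and GGGCGG at -151, and that of *Itgax* AGATAA at -217. Among 32851 mouse promoter windows of the same length, GAGGAA was found in 23.3%, TGTGGT in 14%, GGGCGG in 32.7%, AGATAA in 9.99%, TTGCNNAA in 9.56% and TGACAG in 15.9%. The motifs do not overlap one another in these 3 windows. Of the other members, entries were present for *Itga4*, with TGTGGT and GGGCGG, and for *Itgb7*, with none of the 6 motifs. *Itgal*, *Itgad* and *Itgb2* had no entry.

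Total counts per library were 31559914 to 75810659. Levels are CPM, read counts relative to library size and scaled by edgeR's TMM method, and are listed in the order of replicate numbers 1 to 5. Differences were called at a threshold of 0.05 on p-values from the edgeR quasi-likelihood test, adjusted by the Benjamini-Hochberg method over all 17166 genes that entered it. The floor, the most that 0 observed reads allow, is 3 counts, or 0.0382 to 0.0996 CPM depending on the library, for counting error only. All 8 members passed the filter on low counts, *Itgad* through its level in G-NHX9-8FA and G-NHX9-midi.

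In Empty cells, the order of the chains per kilobase of exon was β2, β1, αX, αM, β7, αL, α4 and αD. *Itgb2* was at 521 ± 40.1 CPM per kb (SD, n = 5), *Itgb1* at 135 ± 15, *Itgax* at 92.0 ± 4.84 and *Itgam* at 55.1 ± 8.53, the last with the reservation on shared exons. *Itgb7* was at 30.3 ± 6.22, *Itgal* at 20.3 ± 5.82 and *Itga4* at 5.76 ± 1.16 CPM per kb. *Itgad* had 0 to 2 counts in every Empty library, which is at or under the limit that a count of 0 allows. The control culture thus held *Itgb2* above each of its α chain transcripts and *Itgb1* above *Itgb7*. Of 18 macrophage markers, such as *Csf1r* and *Mrc1*, only *C1qa*, *Timd4* and *Vsig4* had at most 3 counts in every Empty library.

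*Itgb2*, the shared β chain of all 4 leukocyte heterodimers, was the member with the most counts, and it was lower than in Empty cells with 5 of the 6 constructs. The 5 Empty libraries held 1670, 1720, 1650, 1480 and 1440 CPM, and the G-NHX9 libraries 932, 843, 1010, 647 and 630 CPM. The groups did not overlap, and *Itgb2* fell by 0.97 on the log2 scale (SE 0.14, adjusted p = 2.8e-06) from 1590 ± 122 to 813 ± 171 CPM (SD, n = 5). G-NHX9 cells had the lowest mean of the 7 groups.

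*Itgb2* was at 1530, 1210, 1190, 1040 and 1160 CPM in G-NHX9-8FA libraries, which overlapped Empty in 1 library. The log2 fold change was -0.38 (SE 0.14, adjusted p = 0.046), and the call was lost without any one of Empty replicates 1, 2 and 3 or G-NHX9-8FA replicates 2, 3, 4 and 5 (adjusted p = 0.061 to 0.099) and without a filter on low counts (0.069). In G-NHX9-midi libraries it was at 1140, 837, 951, 1050 and 1080 CPM, all below Empty (log2 fold change -0.65, SE 0.14, adjusted p = 0.00036). The G-NHX9-21FGAA libraries, at 1130, 1180, 1130, 819 and 709 CPM, were also all below Empty (-0.68, SE 0.14, adjusted p = 0.00062). *Itgb2* thus fell without overlap in the full-length, midi and 21FGAA forms.

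In G-NHX9-DDNA libraries *Itgb2* was at 1240, 1150, 1080, 1140 and 1240 CPM, all below Empty (log2 fold change -0.45, SE 0.14, adjusted p = 0.028). Without Empty replicate 2 or 3 or G-NHX9-DDNA replicate 2, 3 or 4 the adjusted p was 0.056 to 0.073, without TMM factors it was 0.064 and without a filter on low counts 0.057. When libraries of equal number were paired in the edgeR test, the G-NHX9-DDNA call was kept (log2 fold change -0.44, adjusted p = 0.0073). In G-NHX9-midi-21FGAA libraries *Itgb2* was at 1500, 1210, 1190, 1230 and 925 CPM, and the log2 fold change of -0.39 was not called (SE 0.14, adjusted p = 0.053). With the replicate number as a block, which pairs the libraries in this comparison, it was -0.40 with adjusted p = 0.013. The G-NHX9-midi-21FGAA libraries overlapped Empty in 1 library.

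Between constructs, *Itgb2* was higher with G-NHX9-8FA than with G-NHX9 (log2 fold change 0.59, SE 0.14, adjusted p = 0.0042) and higher with G-NHX9-DDNA than with G-NHX9 (0.52, SE 0.14, adjusted p = 0.0067), without overlap in either comparison. In libraries 1 to 3 the latter had an adjusted p of 0.051. It did not pass the test for G-NHX9-midi against G-NHX9 (0.31, SE 0.14, adjusted p = 0.12) or for G-NHX9-21FGAA against G-NHX9 (0.29, SE 0.14, adjusted p = 0.18). Without G-NHX9 replicate 3 the former was called (adjusted p = 0.045), and without G-NHX9-21FGAA replicate 5 the latter was (adjusted p = 0.038). The order of means was Empty, G-NHX9-8FA, G-NHX9-midi-21FGAA, G-NHX9-DDNA, G-NHX9-midi, G-NHX9-21FGAA and G-NHX9, and each neighboring pair in this order overlapped.

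**Figure D1:**
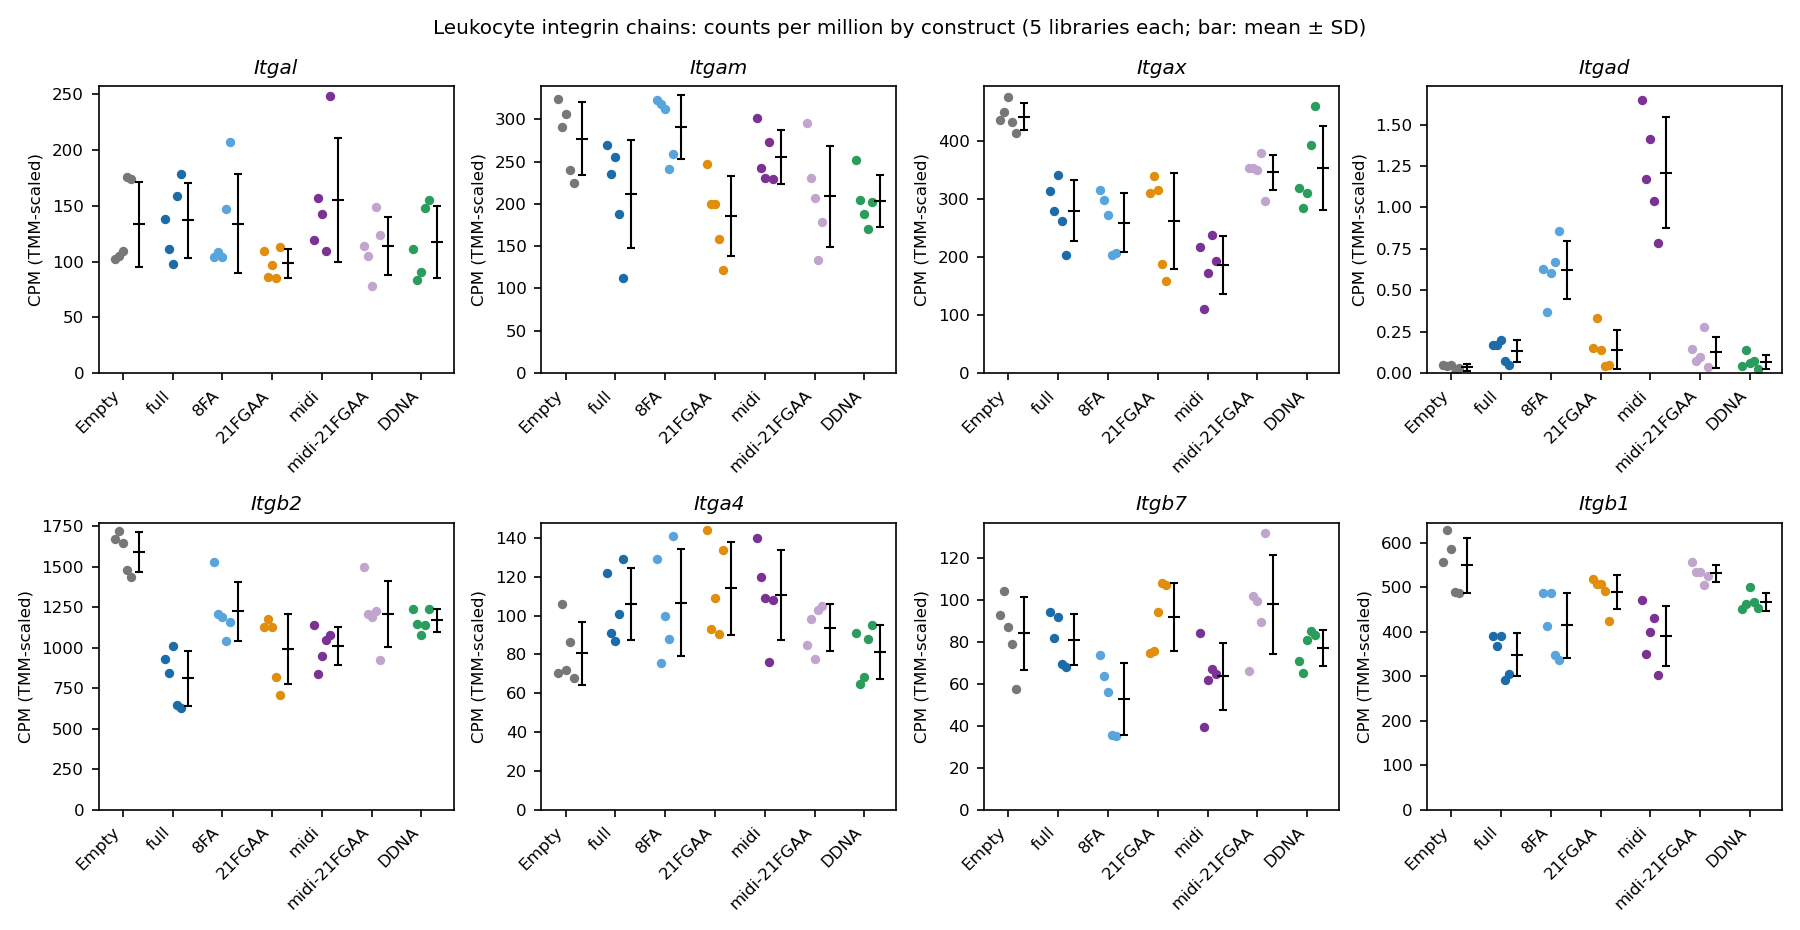
TMM-scaled CPM of the 8 integrin chains (vertical axis, from 0) in each of 35 libraries by construct (horizontal axis), with "full" for G-NHX9 and the other constructs by the end of their names. Points are libraries and bars the mean ± SD of 5. *Itgb2* and *Itgax* are highest in Empty, and *Itgad* reaches 0.783 to 1.65 CPM in the midi form.

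*Itgax*, the α chain of the CD11c integrin of dendritic cells and macrophages, fell with the 4 constructs other than G-NHX9-midi-21FGAA and G-NHX9-DDNA. Its Empty levels were 436, 450, 477, 433 and 414 CPM. They were 314, 280, 341, 262 and 203 CPM in G-NHX9, 316, 298, 273, 204 and 208 in G-NHX9-8FA, and 310, 340, 316, 188 and 159 in G-NHX9-21FGAA. In G-NHX9-midi, the lowest group, they were 218, 111, 172, 239 and 193 CPM. All libraries of these 4 groups lay below all Empty libraries.

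The log2 fold changes of *Itgax* against Empty were -0.66 (SE 0.19, adjusted p = 0.007) for G-NHX9, -0.77 (SE 0.19, adjusted p = 0.0024) for G-NHX9-8FA, -0.75 (SE 0.19, adjusted p = 0.0033) for G-NHX9-21FGAA and -1.24 (SE 0.19, adjusted p = 3e-06) for G-NHX9-midi. The midi form thus had the largest fall of this chain, to 187 ± 49.3 CPM from 442 ± 23.3 (SD, n = 5). G-NHX9-midi-21FGAA libraries held 354, 353, 350, 380 and 297 CPM, again all below Empty, but the difference was not called (-0.35, SE 0.19, adjusted p = 0.21), except with a fit to these 2 groups only (0.015). G-NHX9-DDNA libraries held 320, 284, 311, 393 and 461 CPM (-0.32, SE 0.19, adjusted p = 0.25). In a fit to libraries 1 to 3 of each group, chosen after seeing the data, the latter was called (-0.55, adjusted p = 0.013).

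*Itgax* was lower with G-NHX9-midi than with G-NHX9 (log2 fold change -0.58, SE 0.19, adjusted p = 0.025), a call lost without G-NHX9 replicate 1 or 3 or G-NHX9-midi replicate 2 or 3 (adjusted p = 0.059 to 0.092). It was higher in G-NHX9-midi-21FGAA than in G-NHX9-midi cells, with no overlap (0.89, SE 0.19, adjusted p = 0.00024). The same FG change in the full-length form, which keeps its N-terminal FG motifs, gave -0.09 (SE 0.19, adjusted p = 0.82). G-NHX9-midi against G-NHX9-8FA gave -0.48 (SE 0.19, adjusted p = 0.17). With G-NHX9-midi against G-NHX9-21FGAA it was -0.49 (SE 0.19, adjusted p = 0.039), lost without any one of 6 libraries (G-NHX9-21FGAA replicates 1, 2 and 3 and G-NHX9-midi replicates 2, 3 and 5, adjusted p = 0.052 to 0.14) and with a fit to these 2 groups only (0.12).

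By its member entry, *Itgam*, which encodes CD11b, the common marker of myeloid cells, departed from its chromosomal neighbor *Itgax* with G-NHX9-8FA and G-NHX9-midi. The second *Itgam* entry did not fall with G-NHX9-8FA but fell with G-NHX9-midi, as *Itgax* did (log2 fold change -0.54, adjusted p = 0.0059, edgeR). With the other constructs the log2 ratio of the member entry to *Itgax* within a library was not called against Empty (adjusted p = 0.32 to 0.81, exact permutation). *Itgam* was at 324, 291, 306, 240 and 225 CPM in Empty, 323, 318, 312, 241 and 259 in G-NHX9-8FA and 302, 242, 231, 273 and 229 in G-NHX9-midi. These 3 groups overlapped, with log2 fold changes against Empty of 0.07 (SE 0.19, adjusted p = 0.83) and -0.12 (SE 0.19, adjusted p = 0.66). G-NHX9 libraries held 270, 235, 255, 188 and 112 CPM, G-NHX9-midi-21FGAA 295, 230, 207, 134 and 179, and G-NHX9-DDNA 204, 188, 170 and 202 in replicates 2 to 5, with replicate 1 above these.

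None of these last 3 groups passed the test against Empty, at log2 differences of -0.39 (SE 0.19, adjusted p = 0.13), -0.41 (SE 0.19, adjusted p = 0.15) and -0.45 (SE 0.19, adjusted p = 0.11). With the replicate number as a block, which pairs the libraries in these 3 comparisons, all 3 were called (-0.41, -0.43 and -0.44, adjusted p = 0.011, 0.015 and 0.013). *Itgam* fell with G-NHX9-21FGAA, from libraries at 247, 200, 200, 159 and 122 CPM (log2 fold change -0.58, SE 0.19, adjusted p = 0.025). That call was lost without any one of Empty replicates 1, 2 and 3 and G-NHX9-21FGAA replicates 4 and 5 (adjusted p = 0.052 to 0.12), and without TMM factors (adjusted p = 0.085) or a filter on low counts (0.05). *Itgam* was also lower with G-NHX9-21FGAA than with G-NHX9-8FA (-0.65, SE 0.19, adjusted p = 0.01), except without G-NHX9-21FGAA replicate 5 (adjusted p = 0.062).

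The second *Itgam* entry, with 7.24 ± 0.703 CPM (SD, n = 5) in Empty, fell with 5 constructs and not with G-NHX9-8FA. It was at 4.53 ± 0.948 CPM in G-NHX9 (log2 fold change -0.68, SE 0.16, adjusted p = 0.001), 4.69 ± 1.00 in G-NHX9-21FGAA (-0.63, adjusted p = 0.0029), 4.99 ± 0.585 in G-NHX9-midi (-0.54, adjusted p = 0.0059), 5.0 ± 0.976 in G-NHX9-midi-21FGAA (-0.54, adjusted p = 0.016) and 5.22 ± 0.855 in G-NHX9-DDNA (-0.47, adjusted p = 0.033). In these 5 groups all libraries lay below all Empty libraries. The 2 entries thus gave different calls in 4 comparisons with Empty, and which reads each received was not tested.

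*Itgal*, the α chain of LFA-1, was not called against Empty with any construct in the fit to all libraries without a block. With the replicate number as a block, *Itgal* was called lower for G-NHX9-21FGAA (log2 fold change -0.39, adjusted p = 0.047, edgeR). In libraries 1 to 3 it was called for G-NHX9-midi (0.42, adjusted p = 0.032). Means were 133 ± 38.2 CPM (SD, n = 5) in Empty, 137 ± 33.2 in G-NHX9, 134 ± 44.6 in G-NHX9-8FA, 155 ± 55.3 in G-NHX9-midi, 98.6 ± 13 in G-NHX9-21FGAA, 114 ± 26.0 in G-NHX9-midi-21FGAA and 118 ± 32.6 in G-NHX9-DDNA. The spread within Empty was wide, at 102, 105, 110, 176 and 174 CPM. *Itgal* was higher with G-NHX9-midi (119, 157, 143, 110 and 249 CPM) than with G-NHX9-21FGAA (110, 86.5, 96.9, 85.7 and 113 CPM; log2 fold change 0.66, SE 0.23, adjusted p = 0.024). Without G-NHX9-midi replicate 5 the adjusted p was 0.14, and without G-NHX9-21FGAA replicate 2 or 4 it was 0.064 or 0.06, and without TMM factors 0.057. For G-NHX9-21FGAA against G-NHX9 the log2 fold change of -0.48 was not called (SE 0.23, adjusted p = 0.17), and with the block that pairs these libraries it was -0.43 (adjusted p = 0.038).

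*Itgad*, the α chain of the αDβ2 integrin, was at or under the counting floor in Empty and was detected at a low level with G-NHX9-8FA and G-NHX9-midi. The Empty libraries had 2, 2, 2, 0 and 1 counts. In G-NHX9-8FA there were 27, 20, 28, 26 and 28 counts, and in G-NHX9-midi 83, 39, 69, 39 and 38. These correspond to 0.624 ± 0.175 and 1.21 ± 0.335 CPM (SD, n = 5), which is at least 7.77-fold and at least 15.1-fold higher than Empty, computed against 3 counts per Empty library. Both were called (adjusted p = 1.5e-06 and 5.7e-09), and neither group overlapped any other group than the other one of this pair. *Itgad* entered the test through these same 2 groups, and without a filter on low counts the adjusted p was 8.3e-07 and 1.1e-09.

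In the remaining constructs *Itgad* was lower. G-NHX9 had 6, 8, 7, 3 and 2 counts, G-NHX9-21FGAA 7, 16, 7, 3 and 2, G-NHX9-midi-21FGAA 6, 4, 5, 14 and 3, and G-NHX9-DDNA 2, 6, 3, 3 and 1. Against Empty the first 2 were called (adjusted p = 0.035 and 0.028, at least 1.66-fold and at least 1.76-fold higher) and the last 2 were not (adjusted p = 0.071 and 0.47). The G-NHX9-midi-21FGAA difference was called without TMM factors (adjusted p = 0.037) and without G-NHX9-midi-21FGAA replicate 5 (0.04). The G-NHX9 call was lost without any one of Empty replicates 2, 3, 4 and 5 or G-NHX9 replicates 1, 2 and 3 (adjusted p = 0.051 to 0.08), and without a filter on low counts (0.065). The G-NHX9-21FGAA call was lost without G-NHX9-21FGAA replicate 2 or Empty replicate 4 or 5 (adjusted p = 0.052 to 0.14). In fits to 2 groups only, *Itgad* did not pass the filter for any of these 4 constructs against Empty, and with a filter at a mean of 1 CPM it was not tested at all.

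*Itgad* was higher with G-NHX9-8FA than with G-NHX9 (log2 fold change 2.20, SE 0.45, adjusted p = 0.00094) and higher with G-NHX9-midi than with G-NHX9 (3.17, SE 0.44, adjusted p = 2.3e-06). Relative to G-NHX9-midi it fell by 3.30 on the log2 scale in G-NHX9-midi-21FGAA (SE 0.43, adjusted p = 1.5e-07), and relative to G-NHX9-8FA it fell by 2.13 on the log2 scale in G-NHX9-21FGAA (SE 0.43, adjusted p = 0.00026). With G-NHX9-midi it was higher than with G-NHX9-21FGAA (3.11, SE 0.43, adjusted p = 5.1e-07). The higher group in these 5 comparisons was always 1 of the 2 through which *Itgad* passed the filter. The lower groups held 2 to 16 counts, some at or under the floor, so the sizes of these differences are uncertain. For G-NHX9-midi against G-NHX9-8FA *Itgad* was not called (0.97, SE 0.37, adjusted p = 0.15), although 4 of the 5 midi libraries lay above all of G-NHX9-8FA, and in libraries 1 to 3 it was (1.44, adjusted p = 0.006).

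*Cox6a2* on the opposite strand had 453, 1659, 854, 592 and 133 counts in the Empty libraries, in which *Itgad* had at most 2. It had 612 to 1494 counts in G-NHX9-8FA and 460 to 1245 in G-NHX9-midi. It had 6 to 508 in G-NHX9, 9 to 192 in G-NHX9-21FGAA, 11 to 121 in G-NHX9-midi-21FGAA and 6 to 90 in G-NHX9-DDNA, the groups in which *Itgad* was also low. The range in G-NHX9-8FA and G-NHX9-midi thus lay within that of Empty. Over the 35 libraries Pearson's r between the 2 genes was 0.53 on log2 CPM, as a description of libraries that share groups. The pseudogene Gm17831, on the same strand as *Itgad*, had at most 4 counts in any library. On the opposite strand, 4931431B13Rik had 0 to 14 counts in Empty, 1 to 9 in G-NHX9-8FA, 2 to 14 in G-NHX9-midi and 0 to 4 in the other 4 groups, with 0 to 1 in G-NHX9-midi-21FGAA, and Gm39091 had at most 1. The part of reads from these genes in the *Itgad* counts was not tested.

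**Figure D2:**
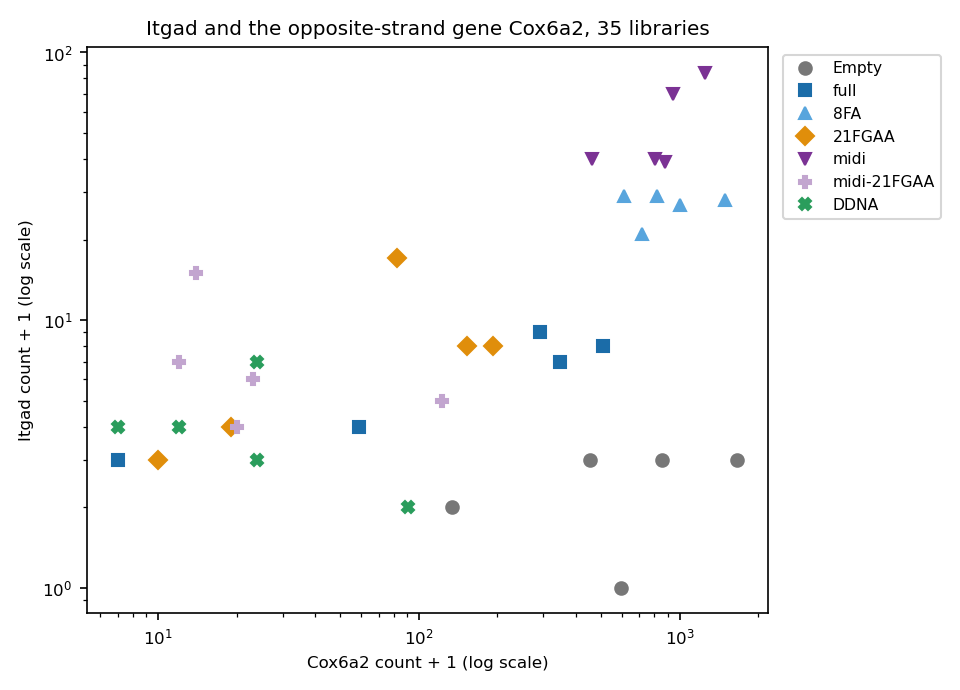
Counts of *Itgad* (vertical axis, count + 1, log scale) and of *Cox6a2* on the opposite strand (horizontal axis, count + 1, log scale) in 35 libraries, with 1 symbol per construct and "full" for G-NHX9. Empty libraries lie low on the vertical axis at *Cox6a2* counts of 133 to 1659, while the midi and 8FA libraries lie highest.

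Among the homing chains, *Itgb1*, the widely used partner of α4 and of the matrix-binding α chains, fell with G-NHX9, G-NHX9-8FA and G-NHX9-midi. It was at 556, 629, 586, 490 and 487 CPM in Empty and at 390, 367, 391, 291 and 304 CPM in G-NHX9, without overlap (log2 fold change -0.66, SE 0.11, adjusted p = 2.9e-05). In G-NHX9-midi it was at 472, 350, 399, 431 and 302 CPM, also without overlap (-0.49, SE 0.11, adjusted p = 0.00064). In G-NHX9-8FA it was at 487, 413, 488, 347 and 337 CPM, with 4 of 5 libraries below Empty (-0.41, SE 0.11, adjusted p = 0.0065).

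With the 2 forms named 21FGAA and with G-NHX9-DDNA *Itgb1* was not called against Empty. It was at 518, 507, 508, 491 and 425 CPM in G-NHX9-21FGAA (log2 fold change -0.17, SE 0.11, adjusted p = 0.29), 558, 535, 534, 505 and 526 in G-NHX9-midi-21FGAA (-0.05, SE 0.11, adjusted p = 0.82) and 452, 463, 501, 467 and 454 in G-NHX9-DDNA (-0.23, SE 0.11, adjusted p = 0.15). These 3 groups overlapped Empty. *Itgb1* was higher with G-NHX9-21FGAA than with G-NHX9 (0.49, SE 0.11, adjusted p = 0.0018), with G-NHX9-DDNA than with G-NHX9 (0.42, SE 0.11, adjusted p = 0.0057) and with G-NHX9-midi-21FGAA than with G-NHX9-midi (0.44, SE 0.11, adjusted p = 0.0017), in all 3 without overlap. It was lower with G-NHX9-midi than with G-NHX9-21FGAA (-0.33, SE 0.11, adjusted p = 0.022), a call lost without G-NHX9-21FGAA replicate 1 or G-NHX9-midi replicate 2 or 5 (adjusted p = 0.053 to 0.085).

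*Itgb7*, which pairs with α4 in the gut-homing receptor and with αE, was lowest with G-NHX9-8FA, at 73.5, 63.6, 56.3, 35.5 and 35.3 CPM against 92.6, 104, 87.0, 78.9 and 57.6 in Empty. It fell by 0.67 on the log2 scale (SE 0.20, adjusted p = 0.011) and overlapped Empty in 2 libraries. G-NHX9 libraries held 94.3, 82.0, 91.8, 69.2 and 68.0 CPM (log2 fold change against Empty -0.05, SE 0.20, adjusted p = 0.87), and G-NHX9-midi libraries 84.0, 39.6, 62.0, 66.9 and 64.8 (-0.40, SE 0.20, adjusted p = 0.1). Without G-NHX9-midi replicate 1 or Empty replicate 5 the latter was called (adjusted p = 0.04 and 0.037). G-NHX9-21FGAA (92.0 ± 16.3 CPM, SD, n = 5), G-NHX9-midi-21FGAA (98.0 ± 23.9) and G-NHX9-DDNA (76.9 ± 8.64) were not called against Empty.

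Between constructs, *Itgb7* was lower with G-NHX9-8FA than with G-NHX9 (log2 fold change -0.62, SE 0.20, adjusted p = 0.031), higher with G-NHX9-midi-21FGAA than with G-NHX9-midi (0.63, SE 0.20, adjusted p = 0.0098) and higher with G-NHX9-21FGAA than with G-NHX9-8FA (0.80, SE 0.20, adjusted p = 0.002). The last pair did not overlap. The first call was lost without G-NHX9 replicate 1 or 3 or G-NHX9-8FA replicate 4 or 5 (adjusted p = 0.059 to 0.088). A fit to those 2 groups only gave 0.06. In libraries 1 to 3 the log2 fold changes of *Itgb7* were -0.56 for G-NHX9-8FA against Empty (adjusted p = 0.064), -0.48 against G-NHX9 (0.14) and 0.37 for G-NHX9-21FGAA against G-NHX9-8FA (0.19), so that none of these 3 was called without the libraries numbered 4 and 5. With G-NHX9-midi *Itgb7* was lower than with G-NHX9-21FGAA (-0.54, SE 0.20, adjusted p = 0.031), a call lost without G-NHX9-midi replicate 2 or 3 or G-NHX9-21FGAA replicate 4 or 5 (adjusted p = 0.055 to 0.11) and in libraries 1 to 3 (0.13).

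*Itga4*, the α chain of the VCAM1 receptor of hematopoietic progenitors, rose with G-NHX9-midi and G-NHX9-21FGAA, with overlap of both groups with Empty. It was at 70.3, 106, 71.9, 86.6 and 67.6 CPM in Empty, 140, 120, 109, 76.0 and 108 in G-NHX9-midi (log2 fold change 0.46, SE 0.17, adjusted p = 0.033) and 144, 93.1, 109, 90.7 and 134 in G-NHX9-21FGAA (0.50, SE 0.17, adjusted p = 0.029). Each call was lost without any one of 5 libraries. For G-NHX9-midi these were Empty replicates 1, 3 and 5 and G-NHX9-midi replicates 1 and 2 (adjusted p = 0.066 to 0.11). For G-NHX9-21FGAA they were Empty replicates 1, 3 and 5 and G-NHX9-21FGAA replicates 1 and 5 (adjusted p = 0.059 to 0.091). *Itga4* was at 106 ± 18.8 CPM (SD, n = 5) in G-NHX9 (0.40, adjusted p = 0.08) and 107 ± 27.6 in G-NHX9-8FA (0.41, adjusted p = 0.082), and without Empty replicate 2 both were called (adjusted p = 0.033 and 0.036), the latter also without G-NHX9-8FA replicate 2 (0.037). Without TMM factors the former was called as well (adjusted p = 0.011). With a fit to G-NHX9-midi and Empty only, their difference had an adjusted p of 0.051, and in libraries 1 to 3 that of G-NHX9-21FGAA had 0.11. It was at 93.6 ± 11.9 in G-NHX9-midi-21FGAA and 81.4 ± 13.9 in G-NHX9-DDNA. No comparison between constructs called it.

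Counted over the 8 members, 4 were called in G-NHX9 against Empty (1 higher, 3 lower), where 32.1% of all tested genes were called. G-NHX9-8FA had 5 (1 higher, 4 lower) with 26.6% of all genes, G-NHX9-midi 5 (2 higher, 3 lower) with 40.5% and G-NHX9-21FGAA 5 (2 higher, 3 lower) with 27.1%. With G-NHX9-DDNA 1 member was called, against 17.2% of all genes. With G-NHX9-midi-21FGAA edgeR called 0 members against 16.9% of all genes. DESeq2 called 1 (*Itgb2*) and 3263 genes in all, against 2903 by edgeR. An unadjusted p under 0.05 in the edgeR test was found for 3 members (*Itgad*, *Itgam* and *Itgb2*), and all genes were not counted at that limit. The median log2 fold change of the members was between -0.30 and -0.14 in the 6 comparisons, and that of all tested genes between -0.02 and 0.03. With 8 members, shares near those of all genes are no result about the members as a list. Without TMM factors the median of all genes lay 0.08 to 0.19 above 0 in these comparisons.

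In the 8 comparisons between constructs, 3 members were called for G-NHX9-8FA against G-NHX9 (14.5% of all genes), 2 for G-NHX9-midi against G-NHX9 (19.7%), 1 for G-NHX9-21FGAA against G-NHX9 (17.2%) and 2 for G-NHX9-DDNA against G-NHX9 (22.1%). With the block 2 were called for G-NHX9-21FGAA against G-NHX9, and calls among all genes rose from 2960 to 3936. For G-NHX9-midi-21FGAA against G-NHX9-midi 4 were called (43.2%), for G-NHX9-21FGAA against G-NHX9-8FA 3 (32.4%), and for G-NHX9-midi against G-NHX9-21FGAA 5 (36.1%). For G-NHX9-midi against G-NHX9-8FA 0 were called by edgeR (4.25% of all genes) and by DESeq2. In the edgeR test 2 (*Itgad* and *Itgax*) had an unadjusted p under 0.05, a limit at which all genes were not counted. In libraries 1 to 3 alone 3 were called (*Itgad*, *Itgax* and *Itgb2*), while calls among all genes rose from 729 to 2273. Comparisons with the same comparator share its libraries and are not independent of each other.

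**Figure D3:**
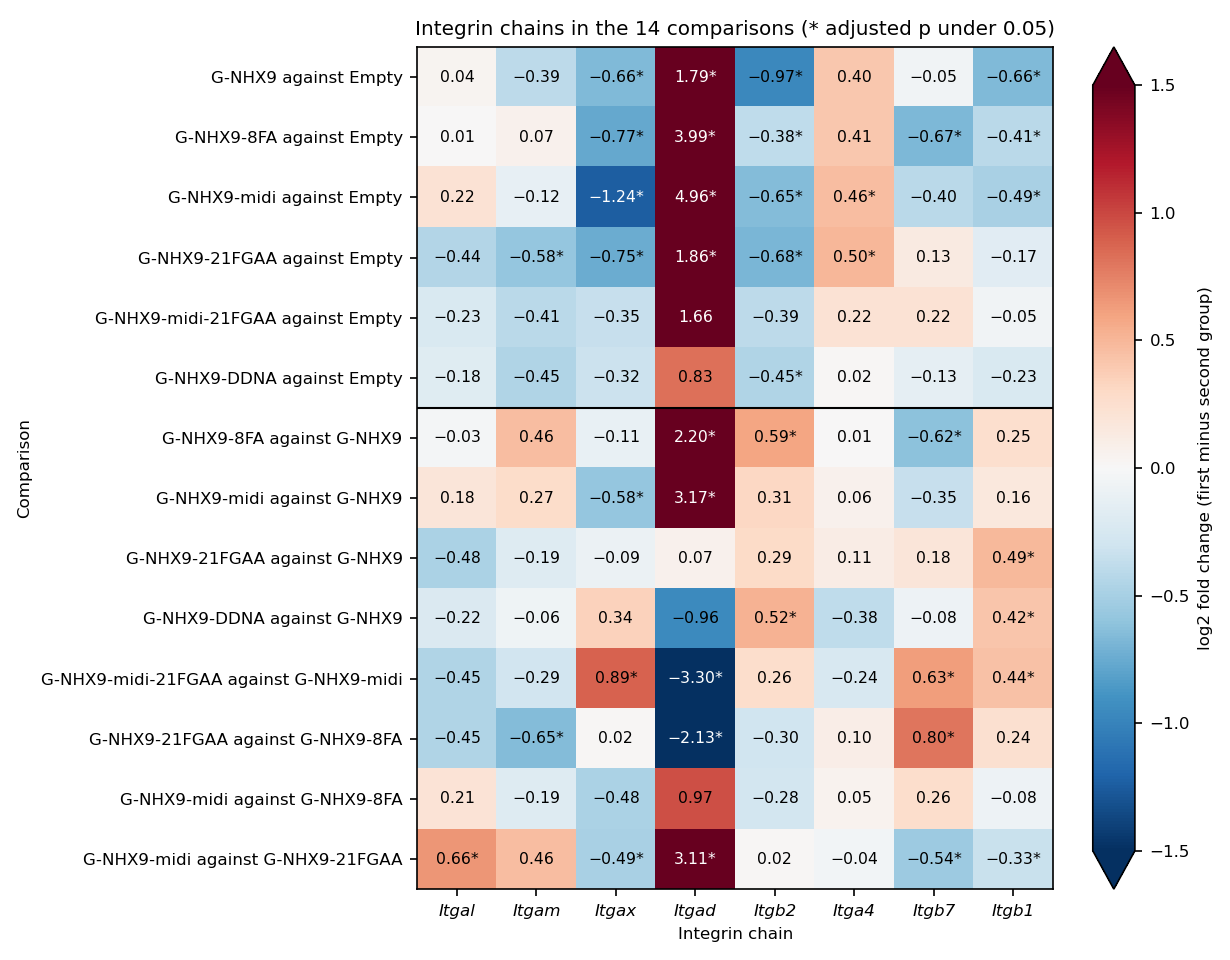
Log2 fold changes (first minus second group; color scale limited to -1.5 and 1.5) of the 8 integrin chains (columns) in 14 comparisons (rows), with the 6 comparisons against Empty above the line. Asterisks mark adjusted p under 0.05, and *Itgax* and *Itgb2* are negative against Empty with every construct while *Itgad* is positive.

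Ratios of 2 chains within a library do not depend on scaling. The ratio of *Itgam* to *Itgax* counts was 0.626 ± 0.0815 (SD, n = 5) in Empty, 0.743 ± 0.122 in G-NHX9, 1.13 ± 0.0894 in G-NHX9-8FA and 1.45 ± 0.423 in G-NHX9-midi. It was 0.727 ± 0.109 in G-NHX9-21FGAA, 0.606 ± 0.172 in G-NHX9-midi-21FGAA and 0.596 ± 0.16 in G-NHX9-DDNA. Every G-NHX9-8FA library (1.02 to 1.25) and every G-NHX9-midi library (1.14 to 2.18) lay above every library of the other 5 groups. *Itgam* was therefore the more counted of the pair only in these 2 groups.

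In two-sided exact permutation tests of 5 against 5 libraries, in which p cannot go below 0.0079, the log2 ratio of *Itgam* to *Itgax* differed in 7 of 14 comparisons at this smallest p (adjusted over 42 tests, 0.03). The differences against Empty were 0.86 (SE 0.10) for G-NHX9-8FA and 1.18 (SE 0.19) for G-NHX9-midi. G-NHX9-8FA against G-NHX9 gave 0.62 (SE 0.12), G-NHX9-midi against G-NHX9 0.94 (SE 0.20), and G-NHX9-midi against G-NHX9-21FGAA 0.97 (SE 0.19). The ratio dropped by 1.27 (SE 0.26) in G-NHX9-midi-21FGAA against G-NHX9-midi and by 0.65 (SE 0.11) in G-NHX9-21FGAA against G-NHX9-8FA. Without G-NHX9-midi replicate 2, the former was -1.11 with an adjusted p of 0.061 by the same exact permutation test, and the groups still did not overlap. Because of the exons that *Itgam* shares, its ratios, taken with the member entry only, compare groups and not the 2 chains themselves.

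The ratio of *Itgb7* to *Itgb1* was highest in G-NHX9, at 0.232 ± 0.0084 (SD, n = 5), against 0.152 ± 0.0200 in Empty and 0.126 ± 0.0251 in G-NHX9-8FA. G-NHX9 libraries (0.223 to 0.242) did not overlap Empty (0.118 to 0.167), G-NHX9-8FA (0.102 to 0.154), G-NHX9-midi (0.113 to 0.215) or G-NHX9-DDNA (0.140 to 0.183). By exact permutation, the log2 difference was 0.62 (SE 0.09) for G-NHX9 against Empty, -0.91 (SE 0.13) for G-NHX9-8FA against G-NHX9, -0.54 (SE 0.15) for G-NHX9-midi against G-NHX9 and -0.50 (SE 0.08) for G-NHX9-DDNA against G-NHX9, each with p = 0.0079 and adjusted p = 0.03. The G-NHX9-midi call was lost without any one of the 5 G-NHX9 libraries (adjusted p = 0.061, exact permutation), while the difference stayed at -0.55 to -0.52 and the groups did not overlap. No other comparison of this ratio was called with all libraries. Without G-NHX9-midi-21FGAA replicate 1 that group against Empty was (0.41 in place of 0.26, adjusted p = 0.028, exact permutation), and without G-NHX9-21FGAA replicate 5 that group against G-NHX9 was (-0.43 in place of -0.32, adjusted p = 0.028, exact permutation).

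The ratio of *Itgam* to *Itgal* differed in 0 of 14 comparisons by the exact permutation test, also at an unadjusted p under 0.05. Its spread within groups was wide, as in Empty (1.29 to 3.18) and G-NHX9 (0.630 to 2.61). With limma and the replicate number as a block, the log2 difference of -0.49 for G-NHX9 against Empty had an adjusted p of 0.041, against 0.57 by exact permutation.

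**Figure D4:**
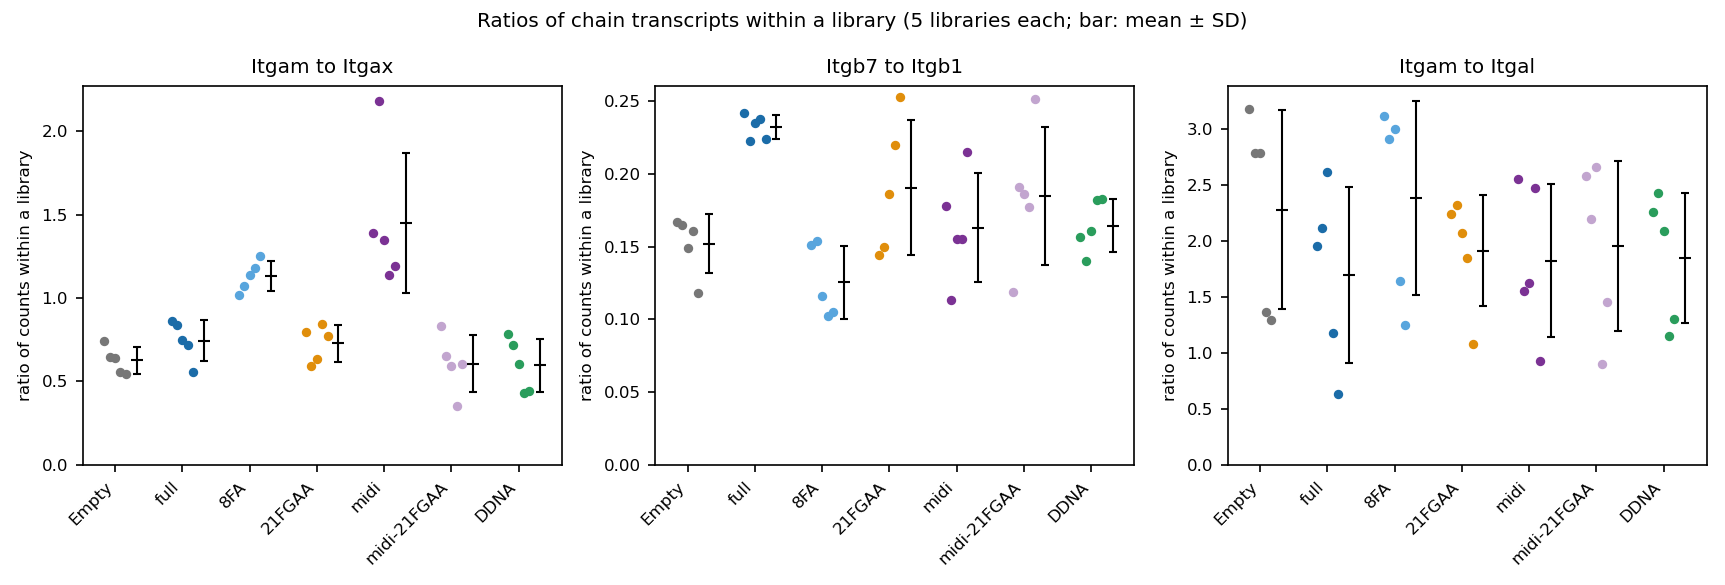
Ratio of counts of 2 chains within a library (vertical axes, from 0) by construct (horizontal axis, "full" for G-NHX9) for *Itgam* to *Itgax*, *Itgb7* to *Itgb1* and *Itgam* to *Itgal*. Points are libraries and bars the mean ± SD of 5, and the 8FA and midi forms are at 1.02 or more in the first panel.

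Other genes of integrin biology were taken as lists. Against Empty, the share of all tested genes called was 32.1% with G-NHX9, 26.6% with G-NHX9-8FA, 40.5% with G-NHX9-midi and 27.1% with G-NHX9-21FGAA. It was 16.9% with G-NHX9-midi-21FGAA and 17.2% with G-NHX9-DDNA. Counts in these lists and in the marker lists below stand beside these shares. Of 17 tested other integrin chains (of 19 listed), 1 rose and 5 fell with G-NHX9, 2 and 8 with G-NHX9-8FA, 3 and 9 with G-NHX9-midi, 4 and 1 with G-NHX9-21FGAA, 3 and 0 with G-NHX9-midi-21FGAA and 2 and 1 with G-NHX9-DDNA. Their median log2 fold changes were -0.38, -0.51, -0.76, 0.45, 0.06 and 0.18 in the same order, against -0.02 to 0.03 for all genes. Named by a fixed rule were *Itgae*, the αE partner of β7, which fell from 4.01 ± 0.752 to 0.876 ± 0.253 CPM (SD, n = 5) with G-NHX9-8FA (log2 fold change -2.20, SE 0.23, adjusted p = 1.3e-08) and to 0.573 ± 0.279 with G-NHX9-midi (-2.81, SE 0.24, adjusted p = 6.9e-11), and *Itga2*, the collagen receptor chain, which fell with the same 2 constructs (-2.04 and -2.62, adjusted p = 8.6e-06 and 8.9e-08). *Itgb2l*, a β2-like chain of neutrophils, rose with G-NHX9-8FA from 48.4 ± 8.95 to 176 ± 53.7 CPM (1.86, SE 0.25, adjusted p = 8.8e-07). *Itga7* rose with G-NHX9-21FGAA (1.97, SE 0.38, adjusted p = 0.00027) and *Itga9* with G-NHX9-midi-21FGAA (1.42, SE 0.31, adjusted p = 0.0024), both under 4 CPM.

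Of 12 tested ligands (of 13 listed, *Madcam1* having at most 3 counts in every library), 1 rose and 4 fell with G-NHX9, 3 and 3 with G-NHX9-8FA, 2 and 3 with G-NHX9-midi, 3 and 3 with G-NHX9-21FGAA and 1 and 1 with each of the other constructs. *Vcam1*, the ligand of α4β1, rose from 10.7 ± 3.58 CPM (SD, n = 5) in Empty to 34.9 ± 6.04 with G-NHX9-8FA (log2 fold change 1.71, SE 0.37, adjusted p = 0.00067) and 51.1 ± 20.8 with G-NHX9-midi (2.26, SE 0.37, adjusted p = 1.1e-05). *F11r*, which encodes the LFA-1 ligand JAM-A, fell with G-NHX9 from 41.9 ± 3.89 to 15.6 ± 0.910 CPM (-1.42, SE 0.13, adjusted p = 6.5e-10). *Fn1*, fibronectin, fell with G-NHX9 (-1.61, adjusted p = 0.0024), G-NHX9-21FGAA (-1.14, adjusted p = 0.031), G-NHX9-midi-21FGAA (-2.29, adjusted p = 0.00064) and G-NHX9-DDNA (-1.28, adjusted p = 0.026). *Icam4* rose with G-NHX9-midi-21FGAA (1.30, SE 0.25, adjusted p = 0.00095), at 3.34 ± 1.03 CPM.

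Of 30 genes for integrin activation and linkage to actin, 2 rose and 11 fell with G-NHX9, 5 and 9 with G-NHX9-8FA, 3 and 16 with G-NHX9-midi, 4 and 5 with G-NHX9-21FGAA, 1 and 1 with G-NHX9-midi-21FGAA and 2 and 1 with G-NHX9-DDNA. Their median log2 fold changes were -0.17, -0.2, -0.27, -0.1, -0.07 and 0 in the same order, against -0.02 to 0.03 for all genes. The Src family kinase gene *Fgr* fell with G-NHX9-21FGAA (log2 fold change -1.05, SE 0.23, adjusted p = 0.0011) and G-NHX9-DDNA (-0.70, SE 0.23, adjusted p = 0.035). Of 7 other homing molecules, 1 rose and 3 fell with G-NHX9, 1 and 2 with G-NHX9-8FA, 2 and 2 with G-NHX9-midi, 1 and 1 with G-NHX9-21FGAA, 1 and 2 with G-NHX9-midi-21FGAA and 1 and 1 with G-NHX9-DDNA.

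Of 9 transcription factors known to act on integrin or myeloid genes, 3 rose and 1 fell with each of G-NHX9, G-NHX9-8FA, G-NHX9-midi and G-NHX9-DDNA, 3 and 3 with G-NHX9-21FGAA and 2 and 2 with G-NHX9-midi-21FGAA. *Myb*, a factor of progenitors, rose from 30.9 ± 7.79 CPM (SD, n = 5) in Empty to 121 ± 9.23 with G-NHX9 (log2 fold change 1.97, SE 0.18, adjusted p = 2e-10), 102 ± 20.5 with G-NHX9-midi (1.73, SE 0.17), 90.1 ± 20.5 with G-NHX9-21FGAA (1.54, SE 0.17) and 74.3 ± 8.2 with G-NHX9-DDNA (1.27, SE 0.17). *Cebpe*, a factor of granulocyte maturation, rose with G-NHX9-DDNA from 33.2 ± 6.33 to 61.6 ± 18.5 CPM (0.89, SE 0.21, adjusted p = 0.0045).

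Markers of other cell types moved with the constructs as well, and in these bulk libraries fewer cells of a type and less RNA per cell cannot be told apart. The summed level of the 18 macrophage markers was 33000 to 45200 CPM in Empty libraries, 6580 to 17200 in G-NHX9, 12400 to 25900 in G-NHX9-8FA and 7590 to 18500 in G-NHX9-midi. It was 13300 to 21500 in G-NHX9-21FGAA, 22000 to 28000 in G-NHX9-midi-21FGAA and 18100 to 24300 in G-NHX9-DDNA. Of 16 tested, 3 rose and 8 fell with G-NHX9, 1 and 6 with G-NHX9-8FA, 1 and 12 with G-NHX9-midi, 0 and 8 with G-NHX9-21FGAA, 0 and 3 with G-NHX9-midi-21FGAA and 0 and 4 with G-NHX9-DDNA. *Timd4* and *Vsig4* had at most 3 counts in every library. The median log2 fold changes of the tested markers were -0.48, -0.44, -0.82, -0.49, -0.05 and -0.28 in the order of these counts. Those of all genes were -0.02 to 0.03. No construct group overlapped Empty in the sum, in which abundant markers weigh most. The sum was highest in Empty, where *Itgb2* and *Itgax* were also highest, and its part in their falls was not tested.

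Of 10 tested dendritic cell markers (of 11), 1 rose and 4 fell with G-NHX9, 0 and 7 with G-NHX9-8FA and with G-NHX9-midi, 0 and 5 with G-NHX9-21FGAA, 0 and 0 with G-NHX9-midi-21FGAA and 0 and 3 with G-NHX9-DDNA. Their summed level was 1190 to 1500 CPM in Empty (median 1360), 638 to 1000 in G-NHX9-midi (median 949), where *Itgax* was lowest, 618 to 1110 in G-NHX9-21FGAA (median 801) and 777 to 1100 in G-NHX9-8FA (median 880). The sum was 960 to 1370 CPM in G-NHX9 (median 1080), 973 to 1460 in G-NHX9-midi-21FGAA (median 1180) and 916 to 1170 in G-NHX9-DDNA (median 985). The part of these cells in the *Itgax* level was not tested. Of 11 late neutrophil markers, 7 rose and 0 fell with G-NHX9-8FA, where the sum was 15400 to 34100 CPM against 9030 to 13000 in Empty. With the other constructs 0 and 2 (G-NHX9), 3 and 3 (G-NHX9-midi), 0 and 2 (G-NHX9-21FGAA), 0 and 2 (G-NHX9-midi-21FGAA) and 3 and 2 (G-NHX9-DDNA) moved. The mean of *Itgam* was highest in G-NHX9-8FA (291 CPM), the group with the highest late neutrophil sum. It was not called there against Empty (277 CPM, log2 fold change 0.07, adjusted p = 0.83, edgeR). G-NHX9-midi and G-NHX9-DDNA had median sums of 18200 and 16800 CPM against 12300 in Empty, with *Itgam* at 256 and 203 CPM. The part of these cells in the *Itgam* level was not tested.

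Of 5 early granule genes, 4 rose with G-NHX9 and with G-NHX9-8FA, 3 with G-NHX9-midi, 5 with G-NHX9-21FGAA and with G-NHX9-DDNA and 0 with G-NHX9-midi-21FGAA, and none fell in these 6 comparisons. Erythroid markers (14 genes) fell in 14 with G-NHX9-8FA and 13 with G-NHX9-midi and rose in 10 with G-NHX9-21FGAA, 12 with G-NHX9-midi-21FGAA and 5 with G-NHX9-DDNA, with 0 called for G-NHX9. Megakaryocyte markers (10) fell in 3 with G-NHX9 and in 10 with G-NHX9-8FA and with G-NHX9-midi, and rose in 3 with G-NHX9-21FGAA. Mast cell and basophil markers (12) fell in 8, 10 and 10 with G-NHX9, G-NHX9-8FA and G-NHX9-midi and rose in 5 with each FG-to-alanine form named 21FGAA. Eosinophil markers (9) fell in 5, 8 and 8 with the same 3 constructs, with 1 higher in G-NHX9-midi, 1 in G-NHX9-21FGAA, 1 in G-NHX9-midi-21FGAA and 2 in G-NHX9-DDNA. *Itgb1* also occurs in mast cells and platelets, and *Itgb7* in mast cells. The sums of mast cell and basophil markers were 1540 to 4030 CPM in Empty and 861 to 1180 in G-NHX9. They were 707 to 1120 in G-NHX9-8FA, 575 to 1090 in G-NHX9-midi and 2990 to 7180 in the other 3 groups. The 3 groups with low sums were those in which *Itgb1* fell, and the part of these cells was not tested. Stem and progenitor markers (8) rose in 4, 2, 3, 4, 4 and 3 and fell in 1, 1, 2, 0, 0 and 1 with G-NHX9, G-NHX9-8FA, G-NHX9-midi, G-NHX9-21FGAA, G-NHX9-midi-21FGAA and G-NHX9-DDNA. Of 4 tested lymphoid markers (of 10), 2 fell with G-NHX9-midi, 1 rose with G-NHX9-21FGAA and 2 with G-NHX9-DDNA.

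The genes whose log2 CPM followed each member most closely over the 35 libraries, among those with a mean of at least 5 CPM, are given as a description, since libraries of a group share a condition. For *Itgax* they were *Ypel2* (Pearson's r = 0.949) and *Amz1* (0.931), for *Itgad* *Abcg3* (0.945) and *Tmem218* (0.902), for *Itgam* *Chmp1b* (0.941) and *Cab39* (0.915), and for *Itgb1* *Cav2* (0.938) and *Cd200r2* (0.928). For *Itgb2* they were *Sept9* (0.933) and *Scarb2* (0.932), for *Itgal* *Pnpla2* (0.910) and *Slc35c1* (0.893), for *Itgb7* *Havcr2* (0.819) and *Lpxn* (0.794), and for *Itga4* *Slc7a1* (0.748) and *Trp53bp1* (0.739). The second *Itgam* entry was followed by *Cyp4a12a* (0.853) and *Tmcc1* (0.848). *Itga4* had the weakest such partners of the 8 members.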

How the data were processed

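Total RNA libraries (TruSeq Stranded Total RNA) of 35 samples, 5 for each of 7 groups, were sequenced by the authors. Per the labels, the deposited values are whole-number read counts per gene, not normalized. The submitters' processing notes name STAR 2.7.0d, HTSeq 0.11.2, DESeq2 and mm10, while the annotation and strand setting are not given in the sources used here. Gene identifiers were matched to GENCODE M21 (99.5% without version). No 2 libraries of a group had counts that agreed within sampling noise (lowest chi-square per degree of freedom 24.7 over 70 pairs).

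Counts were fitted with edgeR 4.0.16 (R 4.3.3; filterByExpr, TMM, quasi-likelihood test, a mean per group, all 35 libraries), with Benjamini-Hochberg adjustment within each of 14 comparisons and a threshold of 0.05. The procedure was tested on simulated data that held no effect of the replicate number and in which only genes at 1 CPM or more were changed. That test says nothing on such an effect or on *Itgad* near the floor. CPM values use TMM-scaled totals, and levels per kb use GENCODE M21 exon lengths. Ratios had 0.5 added to counts for the tests, by two-sided exact permutation of 5 against 5 libraries. limma 3.58.1 and DESeq2 1.42.0 served for alternatives.

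All 8 members are named. From the other lists up to 2 called genes with the largest rise against Empty and up to 2 with the largest fall are named for each construct, at a mean of at least 1 CPM, and for each member the 2 genes with the highest correlation. Some results that these rules would name are not reported here. The members and lists were chosen with earlier results of these data known.

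Libraries with the same replicate number were checked for shared deviations from group means. Every pair correlated at over 0.1 in 5 of 14 comparisons (G-NHX9, G-NHX9-midi-21FGAA and G-NHX9-DDNA against Empty, and G-NHX9-21FGAA and G-NHX9-DDNA against G-NHX9). Elsewhere at least 1 pair did not, as for G-NHX9-8FA against G-NHX9 (0.032 to 0.427). That does not show that those libraries were unpaired. Over all groups the mean correlation was 0.232 for equal and -0.057 for other numbers. The pairing comes from the data, since no label ties a number to a mouse or day.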

Additional observations from a re-analysis of the deposited data

Results flagged for a closer look

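The ratio of *Itgam* to *Itgax* in the G-NHX9-midi libraries was 2.18 in replicate 2 and 1.14 to 1.39 in the others, a gap of 0.76 of the group's range. The library also had the lowest *Itgax* of the group, at 111 CPM. It was the 1 group with such a library among 84 groups of 5 examined, where chance gives about 1 in 20.

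The log2 fold change on changing FG motifs to alanines differed between the full-length and midi forms for 2 members. The difference was tested as a contrast of the same edgeR fit, added after seeing the data and called for 12.6% of all genes. For *Itgad* the log2 fold change was 0.07 in the full-length form and -3.30 in the midi form, a difference of 3.37 (SE 0.67, adjusted p = 0.00064). G-NHX9 had only 2 to 8 *Itgad* counts, so a fall of the size in the midi form could not show there. *Itgad* also entered the fit through its level in G-NHX9-8FA and G-NHX9-midi, and the latter is part of this contrast. For *Itgax* the log2 fold change was -0.09 and 0.89, a difference of -0.99 (SE 0.27, adjusted p = 0.011). The other 6 members were not called in this contrast, with differences between -0.44 and 0.35. After the change the full-length form keeps N-terminal FG motifs and the midi form keeps none, so the 2 forms do not end alike.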

How the results depend on the processing

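No fold change or ratio changed direction together with its call under any alternative run. With RLE size factors all 14 counts of called members stayed within 1.5 times. With the replicate block, the counts moved by more than 1.5 times to 2 for G-NHX9-midi-21FGAA against Empty, 2 for G-NHX9-DDNA against Empty, 5 for G-NHX9-8FA against G-NHX9, 2 for G-NHX9-21FGAA against G-NHX9 and 6 for G-NHX9-21FGAA against G-NHX9-8FA, and by limma with the block the ratio of *Itgam* to *Itgal* was called in 2 comparisons. The block also gave 5 in place of 4 for G-NHX9 against Empty and, in comparisons whose numbers do not pair the libraries, 6 in place of 5 for G-NHX9-21FGAA against Empty (*Itgal*, -0.39, adjusted p = 0.047), 3 in place of 2 for G-NHX9-midi against G-NHX9 (*Itgb2*), 6 in place of 4 for G-NHX9-midi-21FGAA against G-NHX9-midi (*Itgal* and *Itgam*) and 6 in place of 5 for G-NHX9-midi against G-NHX9-21FGAA (*Itgam*). With the block no member lost its call. The block raised the number of all genes called in all 14 comparisons. Where the member count moved by more than 1.5 times, it rose from 2903 to 4352 for G-NHX9-midi-21FGAA and from 2952 to 4297 for G-NHX9-DDNA against Empty. It rose from 2484 to 3952 for G-NHX9-8FA and from 2960 to 3936 for G-NHX9-21FGAA against G-NHX9, and from 5563 to 7097 for G-NHX9-21FGAA against G-NHX9-8FA. In the comparisons in which the numbers pair the libraries, it changed no call other than those given beside the results. A minimum absolute log2 fold change of 0.5 left 3 members for G-NHX9-8FA and 3 for G-NHX9-midi against Empty, 0 for G-NHX9-DDNA against Empty, 0 for G-NHX9-21FGAA and 1 for G-NHX9-DDNA against G-NHX9, and 3 for G-NHX9-midi against G-NHX9-21FGAA, by construction. Calls among all genes were 3180, 4930, 1776, 2253, 2873 and 4290 in the same order. For G-NHX9-midi-21FGAA against Empty there were 1 without TMM factors, 1 with a mean of at least 1 CPM, 2 with a fit to the 2 groups only and 1 with DESeq2. Calls among all genes were 3939, 2928, 2536 and 3263 in this order, against 2903 in the main fit. For G-NHX9-DDNA against Empty there were 0 without TMM factors, 0 without a filter and 2 with the 2 groups only, and for G-NHX9-midi against G-NHX9 1 with a mean of at least 1 CPM, which leaves *Itgad* out. Calls among all genes were 3536, 2101 and 2767 for the former, against 2952 in the main fit, and 2893 for the latter, against 3378. In libraries 1 to 3 only, added after seeing the data, there were 4 for G-NHX9-DDNA against Empty, 1 for G-NHX9-DDNA against G-NHX9 and 3 for G-NHX9-midi against G-NHX9-8FA. Calls among all genes were 3849, 3864 and 2273 in this order, against 2952, 3798 and 729 with all libraries. Except where stated, the cause was not tested. Leaving out each library in turn gave, against Empty, 3 to 4 called members for G-NHX9, 4 to 5 for G-NHX9-8FA, 4 to 5 for G-NHX9-midi, 3 to 5 for G-NHX9-21FGAA, 0 to 1 for G-NHX9-midi-21FGAA and 0 to 1 for G-NHX9-DDNA. Against G-NHX9 it gave 2 to 3 for G-NHX9-8FA, 1 to 2 for G-NHX9-midi, 1 to 2 for G-NHX9-21FGAA and 2 to 2 for G-NHX9-DDNA. It gave 4 to 5 for G-NHX9-midi-21FGAA against G-NHX9-midi, 3 to 4 for G-NHX9-21FGAA against G-NHX9-8FA, 0 to 0 for G-NHX9-midi against G-NHX9-8FA and 2 to 6 for G-NHX9-midi against G-NHX9-21FGAA. Calls among all genes in these runs are not given here. The ratios were called in 3 to 5 (*Itgb7* to *Itgb1*), 0 to 0 (*Itgam* to *Itgal*) and 6 to 7 (*Itgam* to *Itgax*) comparisons. Depth limits only *Itgad*, whose counts were at most 16 outside G-NHX9-8FA and G-NHX9-midi.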

Other observations

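Libraries numbered 4 and 5 lay apart from those numbered 1 to 3 for several members. Both were above all of 1 to 3 for *Itgal* in 5 of 7 groups, and both below for *Itgam* in 5, *Itgb1* in 5, *Itgb2* in 4, *Itgax* in 4 and *Itgad* in 4. For *Itgax* and *Itgad* both were above in 1 group, for *Itgb7* both were below in 3 and above in 2, and for *Itga4* below in 1 and above in 1. What the numbers stand for is not in the labels, which give other ages for Empty replicates 4 and 5.

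Over the 35 libraries, log2 CPM of *Itgb2* followed *Itgax* (Pearson's r = 0.70), *Itgb1* (0.70) and *Itgam* (0.62) and not *Itgal* (-0.18), as a description of libraries that share groups. *Itgal* ran against *Itgb1* (-0.61), and *Itgad* against *Itgax* (-0.58).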
